A study of Anas platyrhynchos with 2 samples.

Results

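The miRNAs described here are the chicken-named mature miRNAs (prefix gga, for Gallus gallus) whose number, the digits directly after miR-, is 1000 or above, with all arms taken. They made up 30 of the 288 mature miRNA rows counted in duck duodenum, from 24 hairpins, and were set against the 202 chicken-named miR rows with lower numbers. The rule reads names only and no measured value, although it was set with earlier results of these data known. The highest number under the threshold was 499 and the lowest above it was 1306. Just inside it, miR-1306-3p had 3.60 CPM in CT and 4.68 CPM in CC, and just outside it miR-499-5p had 62.6 CPM in CT and 61.7 CPM in CC.

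The sequenced small RNA came from the duodenum of Jingjiang ducks, an egg-laying domestic breed, all female and 1 day old, drawn from 20 birds that were split into a transported and a control group. The transported group was driven for 8 h at 40 to 70 km per h over ordinary and bumpy roads, and its duodenum is labelled as having damaged mucosa. The control group sat in the same kind of carry case and was not driven, and its duodenum is labelled as normal. Each group is represented by 1 library, and the sources used here do not say how many ducks went into it. The libraries are named CT and CC. CT was read as the transported library and CC as the control library from their last letters, which no label spells out, and directions are therefore those of CT relative to CC. The total was 5272666 counts in CT and 5772509 in CC. Levels are in CPM, counts per 1e6 counts of the library. The 95% intervals are exact, cover counting error only, and set one library against the other, not transport against its absence. The tissue label was checked only on the most abundant row, miR-215-5p, a miRNA of intestinal epithelium, which took 43.5% of the counts in CT and 40.6% in CC. Whether the libraries hold the same mix of cells was not tested. Some lower-numbered rows were far apart, with miR-217-5p at 10523 counts in CT and 217 in CC, and miR-216b at 2629 in CT and 96 in CC. Among the 121 lower-numbered rows that reached 50 counts in all, 9 were 2-fold or more higher in CT and 1 was 2-fold or more lower.

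A miRNA is cut from a hairpin transcript and guides Argonaute proteins to messenger RNAs, mainly through its seed, bases 2 to 8 counted from the 5′ end. miRNAs are numbered in the order in which they were registered, so the widely conserved animal miRNAs found early carry low numbers, and many that were found by deep sequencing of chicken tissues carry high ones. A high number is a record of discovery and does not by itself show that a miRNA is limited to birds. miR-2954 is the best studied of them. It is encoded on the avian Z chromosome and is more abundant in males, which carry a pair of Z chromosomes, than in females.

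The mature sequences of the 12 miRNAs that reached 10 counts in all are shown as listed in the deposited table, 5′ to 3′, with the seed in capitals. Their seeds are compared below with those of the other rows.
miR-2954: cAUCCCCAuuccacuccuagca
miR-1559-5p: uUCGAUGCuuguaugcuacucc
miR-1662: uUGACAUCaucauacuugggau
miR-1416-5p: uCCUUAACucaugccgcugug
miR-1451-5p: uCGCACAGgagcaaguuaccgc
miR-2131-3p: cUGUUACUguucuucugaugg
miR-2131-5p: aUGCAGAAgugcacggaaacagcu
miR-3535: gGAUAUGAugacugauuaucugaaa
miR-1306-3p: uGGACGUUggcucugguggugau
miR-2188-5p: aAGGUCCAaccucacauguccu
miR-1306-5p: aCCACCUCcccugcaaacguccagu
miR-1434: gUGCGUGAugauggaaaauu

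None of these 12 seeds occurred in another of the 288 rows. No miRNA database was searched, so whether a seed belongs to a family outside these rows was not tested. Over all 30 miRNAs numbered 1000 or above, 1 (3.33%) had a seed found in another row, against 78 of the 202 lower-numbered rows (38.6%). The lower-numbered rows include families with several members, such as miR-30, whose 5p arms share a seed. In length the groups were alike, with a median of 22 nt in both and a range of 20 to 25 nt in the higher-numbered and 17 to 28 nt in the lower-numbered rows. The median share of G and C was 45.5% in the higher-numbered and 43.5% in the lower-numbered rows. miR-7475-5p, at 95% G and C, lay above the highest lower-numbered row at 61.9%.

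The miRNAs numbered 1000 or above were many by name and few by count. They were 10.4% of the rows and took 0.0937% of the CT counts (interval 0.0911 to 0.0964%) and 0.0951% of the CC counts (0.0926 to 0.0977%). On these full totals the shares differed by less than the counting error, which did not hold under every scaling tried. The lower-numbered rows, 70.1% of the table, took 83.9% of the CT counts and 78.4% of the CC counts. The remainder belonged to 14 let-7 rows and 42 predicted rows. The predicted rows took 12.1% of the CT counts and 17.6% of the CC counts. Most of that was 1 row, novel_1, with 579436 counts in CT and 946093 in CC, which the full totals include. The median higher-numbered row had 0.379 CPM in CT and 0.346 CPM in CC, against 16.4 CPM in CT and 14.0 CPM in CC for the lower-numbered rows. The higher-numbered medians are 2 counts in each library, under the 0.569 CPM in CT and 0.520 CPM in CC that 0 counts leaves possible.

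**Figure D1:**
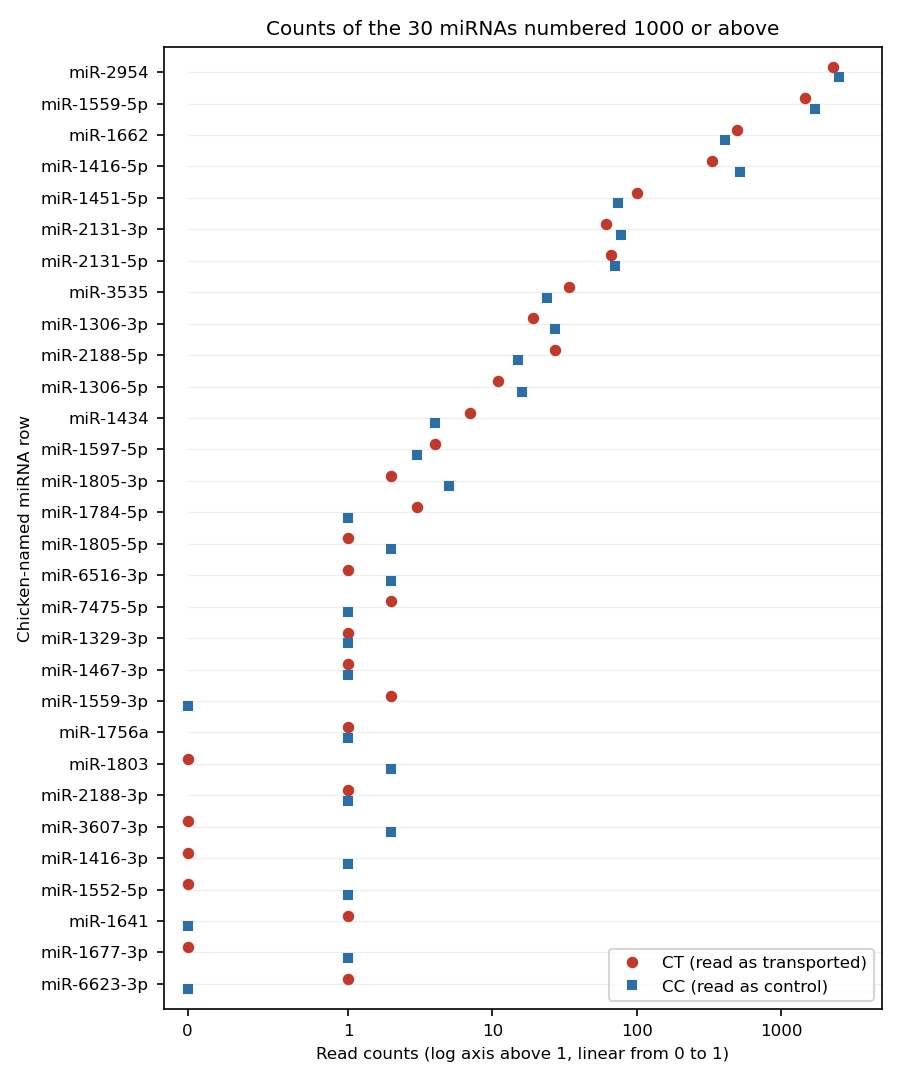
Read counts (horizontal, logarithmic above 1) of each of the 30 miRNAs numbered 1000 or above (vertical), with circles for CT and squares for CC. miR-2954 and miR-1559-5p lie above 1000 counts in both libraries, and 18 of the 30 rows have fewer than 10 counts over both.

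Detection among the listed rows was broad and shallow. Every listed row of both groups had at least 1 count in CT or CC. Any miRNA with no counts in either library is thus outside these denominators. The shares below do not tell what part of all such miRNAs was found. At least 1 count was found for 25 of the 30 in CT (83.3%) and 27 in CC (90.0%), against 195 of 202 lower-numbered rows in CT (96.5%) and 192 in CC (95%). At least 10 counts were reached by 11 of the 30 in CT and 11 in CC (36.7% in each), against 143 of 202 lower-numbered rows in CT and 143 in CC (70.8% in each). Over both libraries, 18 of the 30 (60%) had fewer than 10 counts and 2 (6.67%) had 1000 or more. The corresponding numbers of lower-numbered rows were 43 (21.3%) and 66 (32.7%). The 22 found in both libraries included every one with more than 2 counts. With 0 counts, a level of up to 0.569 CPM in CT or 0.520 CPM in CC remains possible, so none of the 8 seen in a single library can be called absent from the other.

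**Figure D2:**
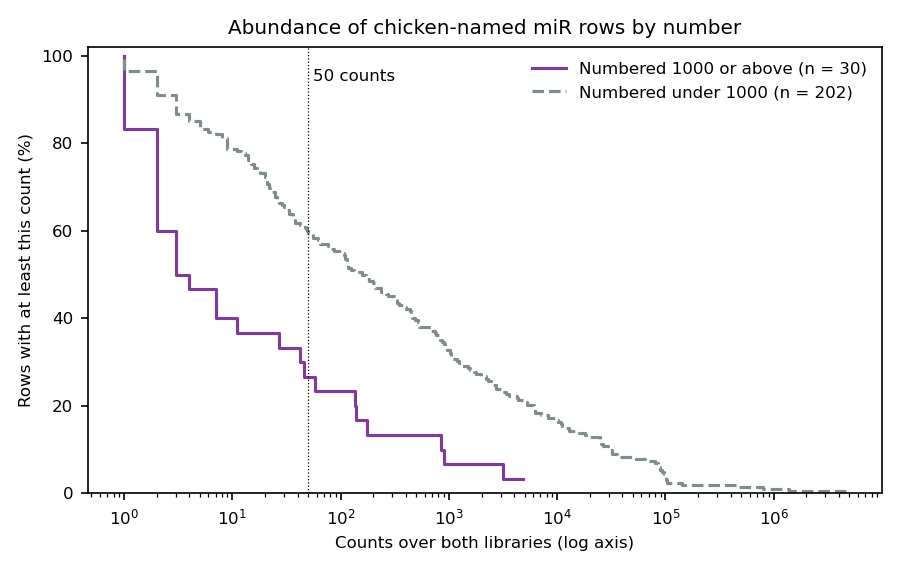
Percentage of rows (vertical) with at least the given count over both libraries (horizontal, logarithmic), for the 30 rows numbered 1000 or above (solid) and the 202 lower-numbered rows (dashed); the dotted line marks 50 counts. 26.7% of the higher-numbered rows and 59.9% of the lower-numbered rows reached 50 counts.

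A small number of miRNAs supplied nearly all of these counts. miR-2954 had 2302 counts in CT and 2514 in CC, which was 46.6% of the summed counts of the 30 in CT and 45.8% in CC. It ranked 56 of 288 rows in CT and 56 in CC, and 42 lower-numbered rows had more counts than it in CT and 42 in CC. At 437 CPM in CT and 436 CPM in CC its level was equal within counting error. All ducks were female by the labels, and with no male library the level does not check the sex of the birds.

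miR-1559-5p came next, with 1462 counts in CT and 1719 in CC, or 277 CPM in CT and 298 CPM in CC. Together with miR-2954 it made up 76.2% of the counts of the 30 in CT and 77.1% in CC. miR-1662 had 498 counts in CT and 406 in CC, or 94.4 CPM in CT and 70.3 CPM in CC. miR-1416-5p had 332 counts in CT and 519 in CC, or 63.0 CPM in CT and 89.9 CPM in CC. The order of these last was not the same in the libraries, since miR-1662 was above miR-1416-5p in CT and below it in CC. These 4 miRNAs held 93.0% of the counts in CT and 93.9% in CC, and they were the 4 of the 30 that ranked among the 100 most abundant rows in each library.

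The members with at least 50 and under 1000 counts also included miR-1451-5p, both arms of miR-2131 and miR-3535. miR-1451-5p had 101 counts in CT and 74 in CC (19.2 CPM in CT and 12.8 CPM in CC). miR-2131-5p had 66 counts in CT and 71 in CC, and miR-2131-3p had 61 in CT and 78 in CC. These 3 lay between 11.6 and 19.2 CPM in CT and between 12.3 and 13.5 CPM in CC, close to the median lower-numbered row. miR-3535, a 25-nt row, had 34 counts in CT and 24 in CC.

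With 10 to 49 counts, miR-1306, whose hairpin lies within the DGCR8 transcript in mammals, was seen from both arms. miR-1306-3p had 19 counts in CT and 27 in CC, and miR-1306-5p had 11 in CT and 16 in CC. miR-2188-5p, of a miRNA also known from zebrafish, had 27 counts in CT and 15 in CC. miR-1434 had 7 counts in CT and 4 in CC.

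The remaining 18 rows summed to 21 counts in CT and 25 in CC, with at most 4 in CT and 5 in CC. Of these, 10 were seen in both libraries. They were miR-1329-3p, miR-1467-3p, miR-1597-5p, miR-1756a, miR-1784-5p, miR-1805-3p, miR-1805-5p, miR-2188-3p, miR-6516-3p and miR-7475-5p. In CT alone, miR-1559-3p had 2 counts, and miR-1641 and miR-6623-3p had 1 each. In CC alone, miR-1803 and miR-3607-3p had 2 counts each, and miR-1416-3p, miR-1552-5p and miR-1677-3p had 1 each. At such counts no ratio between the libraries was taken.

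For miR-1552-5p the low count was accompanied by a near-identical predicted row. The row novel_112 had 94 counts in CT and 138 in CC (17.8 CPM in CT and 23.9 CPM in CC). It differed from the chicken-named sequence at 1 base, G10A, counted from the 5′ end of miR-1552-5p, so that the seed in capitals is the same in both.
miR-1552-5p: uUAGUGCGcgguaagcuagggug
novel_112: uUAGUGCGcaguaagcuagggug
The deposited table places novel_112 on the plus strand of duck scaffold KB742659.1 within 1367696 to 1367807, an interval longer than the hairpin it lists. It names no build, and no annotation was used here. Its 60-nt listed hairpin aligned inside the listed miR-1552 hairpin with 4 edits. With novel_112 counted as miR-1552-5p, a reading made after its values were seen, miR-1552-5p would rank 6 among the 30 in CT and 5 in CC. It was the only predicted row whose mature sequence lay within 3 edits of any of the 24 hairpins, on either strand. The closest after it was novel_116, which needed 4 edits against the miR-7475 hairpin and had 2 counts in CT and 7 in CC. Among the mature rows, with the shorter sequence aligned inside the longer, miR-1756a lay within 3 edits of the reverse complement of miR-138-5p. miR-138-5p, with 4 counts over both libraries, was also listed as nearest to several other members at 6 or 7 edits, among them miR-2954 and miR-3535. Nearly all of the 30 had their nearest row at 6 or 7 edits, and equal distances were ordered by name. At that distance a nearest row does not show that the sequences are related. Besides miR-1756a and miR-1552-5p, none of the 30 was within 3 edits of another row on either strand.

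CT was compared with CC, the contrast of the study, for the 8 members with at least 50 counts over both libraries. None of the 8 was at least 2-fold apart, where 7.38% of all 149 rows with that many counts were. At 1.5-fold, miR-3535 alone passed, where 22.1% of the 149 did. The log2 ratio of CT to CC had a median of 0.01 over the 8, beside 0.06 over the 121 lower-numbered rows and 0.02 over all 149. The median size of the log2 ratio, whatever its sign, was 0.32 over the 8, 0.33 over the lower-numbered rows and 0.33 over all 149. The summed counts of all 30 gave a ratio of 0.985 (0.948 to 1.02). With 1 library per group no p-value is given.

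The 8 were divided in direction. The interval of the ratio excluded 1 in 4 of them, where it did so in 68.5% of the 149 rows, and these 4 were split evenly. It lay above 1 in 2 of the 8 (34.9% of the 149) and below 1 in 2 (33.6% of the 149). Intervals narrow as counts rise, and 2 of the 8 reached 1000 counts, against 66 of the 121 lower-numbered rows, so these shares also depend on depth. miR-1662 was 1.34-fold higher in CT (1.18 to 1.53) and miR-1451-5p 1.49-fold higher (1.10 to 2.05). miR-1416-5p was 1.43-fold lower in CT (1.24 to 1.64), which is a log2 ratio of -0.51. miR-1559-5p was at a ratio of 0.931 (0.868 to 0.999), whose interval included 1 once the 10 most abundant rows were taken out of the totals. Of these 4, miR-1416-5p had the interval farthest below 1. Its level in CT lay below that in CC by more than counting error under every scaling tried. Those of miR-1662 and miR-1451-5p lay above by more than counting error under every scaling as well.

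In the other 4 the difference was within counting error. miR-2954 had a log2 ratio of 0.00 (-0.08 to 0.09), the narrowest interval of the 8, although with totals over chicken-named rows its log2 ratio was -0.09 with an interval that excluded 0. miR-2131-5p had a log2 ratio of 0.03 (-0.48 to 0.53), which turned negative with TMM factors, size factors or totals over chicken-named rows. miR-2131-3p had -0.22 (-0.73 to 0.28). miR-3535 had a ratio of 1.55 (0.893 to 2.73). Among the members with 10 to 49 counts, miR-2188-5p came nearest to 2-fold, at a ratio of 1.97 (1.01 to 3.99), and miR-1434 had 1.92 (0.487 to 8.93). The arms of miR-1306 were at 0.770 (0.405 to 1.44) for the 3p and 0.753 (0.316 to 1.73) for the 5p. Counts of this size leave ratios from lower than 1 to above 2 within the intervals of miR-1434 and miR-3535.

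**Figure D3:**
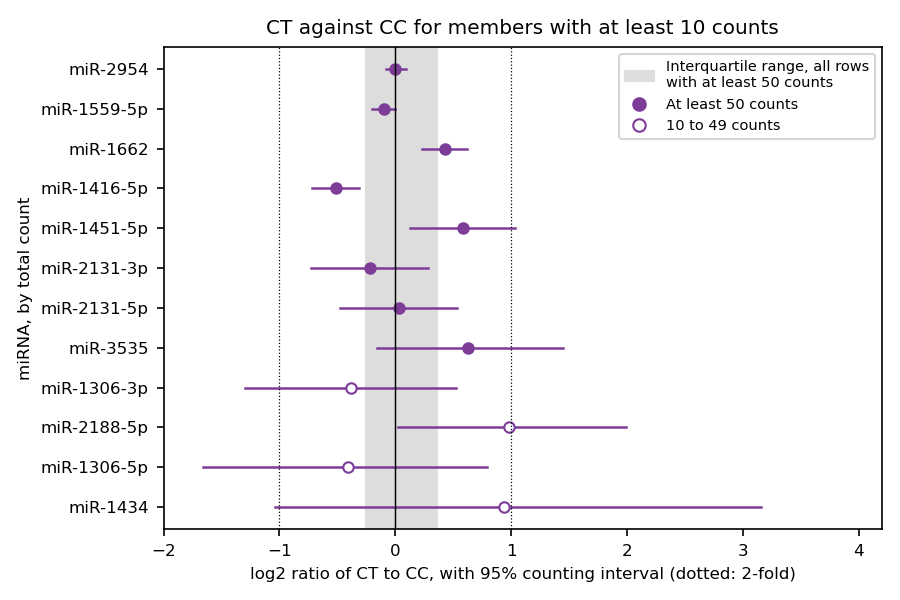
log2 ratio of CT to CC (horizontal) with its 95% counting interval for the 12 members with at least 10 counts, ordered by total count; filled points have at least 50 counts, the grey band is the interquartile range of all 149 rows with at least 50 counts (-0.25 to 0.36), and dotted lines mark 2-fold. miR-1416-5p lies to the left at -0.51, miR-1662 and miR-1451-5p to the right at 0.43 and 0.58, and miR-2954 at 0.00.

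Across the 30 rows, log2(CPM + 1) in CT and CC correlated with a Pearson r of 0.991 and a Spearman rho of 0.807, against 0.98 and 0.960 over the 202 lower-numbered rows. The rows of a library share its preparation and depth and are not replicates. In 18 of the 30 rows the counts were under 10 over both libraries.

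Both arms were listed for 6 of the 24 hairpins, and the other 18 had a single row each. miR-2954 was among the latter, with no row for its opposite arm, so its arm balance is not analysed here. For miR-1559 the 5p arm held 99.9% of the counts in CT (99.5 to 100%) and 100% in CC (99.8 to 100%). For miR-1416 the share was 100% in CT (98.9 to 100%) and 99.8% in CC (98.9 to 100%). miR-2188 was likewise one-sided at low depth, with 27 of 28 counts in CT from the 5p arm and 15 of 16 in CC.

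The arms of miR-2131 and miR-1306 were closer to even. The 5p arm of miR-2131 took 52.0% in CT (42.9 to 60.9%) and 47.7% in CC (39.4 to 56.0%), so that 5p led in CT and 3p in CC with intervals that both include 50%. The 5p arm of miR-1306 took 36.7% in CT (19.9 to 56.1%) and 37.2% in CC (23 to 53.3%). Of the 4 hairpins with at least 50 counts, 2 had at least 90% of the counts in the major arm and 2 had at most 70%. Among lower-numbered hairpins with both arms and at least 50 counts, 50 of 62 had at least 90% in the major arm and 4 had at most 70%. The share of the 5p arm differed between CT and CC by over 5 points in 0 of the 4 hairpins and in 6 of the 62. miR-1805, with 3 counts in CT and 7 in CC, was too shallow for a share.

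**Figure D4:**
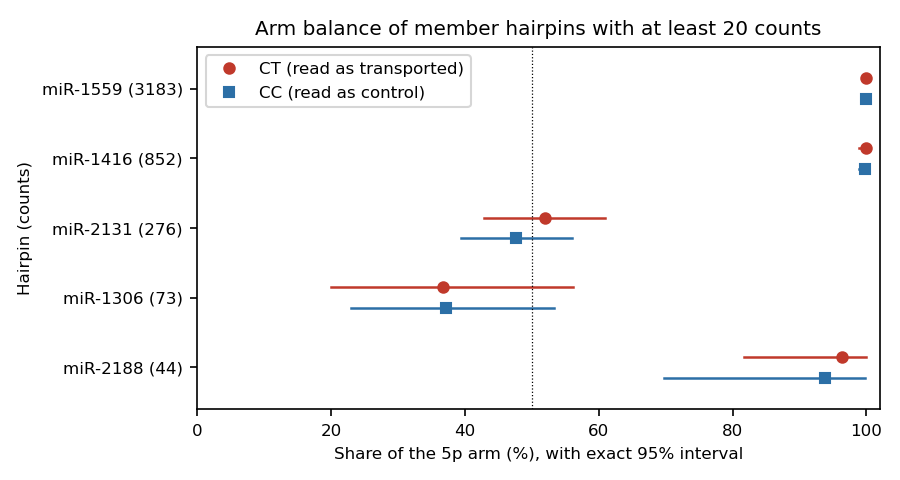
Share of counts from the 5p arm (horizontal) with its exact 95% interval in CT (circles) and CC (squares) for the 5 hairpins with at least 20 counts, with the total count in brackets. The 5p arm of miR-2131 sits at 52.0% in CT and 47.7% in CC, and those of miR-1559 and miR-1416 at 99.8 to 100% in both.

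Folding the listed hairpins gave a median minimum free energy per base of -0.44 kcal/mol in the 24 higher-numbered and -0.41 kcal/mol in the 133 lower-numbered hairpins, where a more negative value is a more stable predicted fold. The extremes among the higher-numbered were miR-7475 at -0.66 kcal/mol and miR-1434 at -0.28 kcal/mol per base, each beyond the range of the lower-numbered hairpins (-0.61 to -0.29 kcal/mol), as was miR-1451 at -0.63 kcal/mol. In the predicted fold, a median of 83.4% of the bases of the more abundant mature row were paired in the higher-numbered and 85.7% in the lower-numbered hairpins. In 3 higher-numbered hairpins the paired share was below the lowest lower-numbered hairpin at 70.8%. These were miR-6516 at 56.5%, miR-2954 at 63.6% and miR-3535 at 68.0%. miR-2954, the most abundant of the 30, was thus among the most loosely paired in these folds, and its mature row lies on the 3p side, bases 37 to 58 of a 68-nt hairpin. The folds are of the hairpins as listed under chicken names, and no duck genome was used here.

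**Figure D5:**
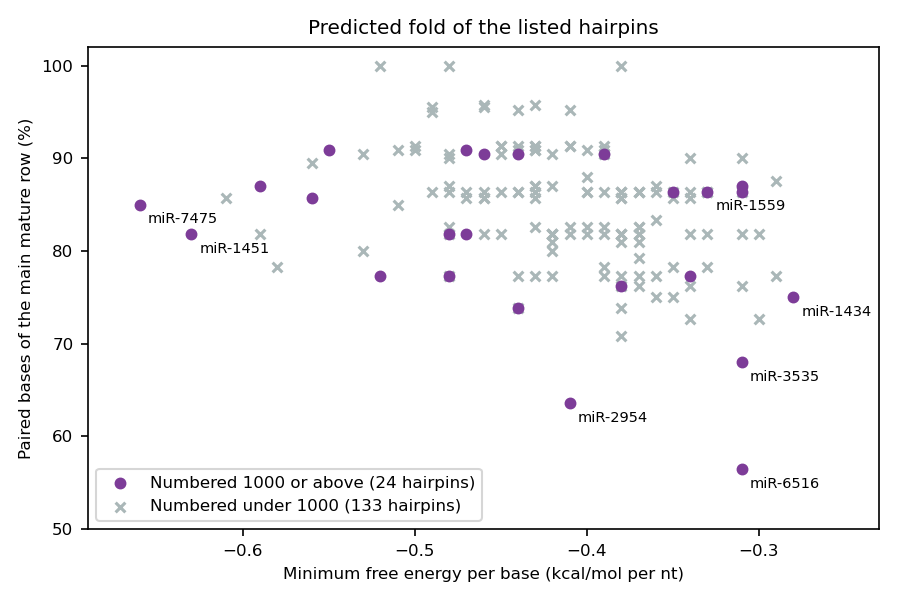
Percentage of bases of the more abundant mature row that are paired in the predicted fold (vertical) against minimum free energy per base (horizontal, kcal/mol per nt), for 24 hairpins numbered 1000 or above (circles) and 133 lower-numbered hairpins (crosses). miR-6516, miR-2954 and miR-3535 lie below every cross, at 56.5%, 63.6% and 68.0%.

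A list of 9 numbers known from vertebrates other than birds was taken from general knowledge, and 5 of them were in the table, namely miR-1306, miR-1329, miR-1451, miR-2188 and miR-6516. They gave 7 of the 30 rows, with 161 counts in CT and 136 in CC, or 3.26% of the counts of the 30 in CT and 2.48% in CC. The other 23 rows held 96.7% in CT and 97.5% in CC, most of it in miR-2954 and miR-1559-5p. By row, the listed ones had a median of 2.09 CPM in CT and 2.60 CPM in CC, against 0.379 CPM in CT and 0.346 CPM in CC for the other 23. The listed medians rest on rows of 11 counts in CT and 15 in CC, and those of the other 23 on rows of 2 counts in each library. The 4 most abundant members were all among the other 23. The list was not checked for completeness, so the other 23 may hold further miRNAs known outside birds. The label of a bird lineage thus goes beyond what is known for these 7 rows, and for the other 23 it was not checked against other genomes.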

How the data were processed

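Small RNA of duck duodenum was sequenced in 1 library of a transported group (read as CT) and 1 library of a control group (read as CC). Per the labels' protocols, RNA was obtained with Trizol, a 15% gel was used to keep the 20 to 30 nt fraction of 10 µg, and libraries were made by standard Illumina steps. Per the file headers, the authors deposited read counts and TPM for each mature miRNA. The deposited TPM equal count divided by the library sum, times 1e6, within 4.3e-05, hold no length term and are called CPM. A read spans a whole mature miRNA, so miRNAs were compared on this scale, and capture bias between sequences was not measured. Not given in the sources used here are the aligner, the miRNA database, the build and whether reads were matched to chicken or duck sequences.

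Ratios carry exact conditional (Clopper-Pearson) 95% intervals and shares exact binomial ones, and a count of 0 was taken at a floor of 3 counts. Intervals and floors cover counting error only, and p-values are not given with 1 library per group. Ratios were called at 2-fold among rows with at least 50 counts over both libraries. Members with at least 50 counts were named in full, those with 10 to 49 with their counts, and the rest by name. Members and lists were chosen with earlier results of these data known. Alternatives were TMM factors (edgeR 4.0.16), size factors (DESeq2 1.42.0), other totals, other minimums, 5 CPM added before the ratio and a 1.5-fold rule. Hairpins were folded with RNAfold 2.7.2. Computation used Python 3.11.15, numpy 2.4.6, scipy 1.17.1, pandas 2.3.3 and R 4.3.3, and figures matplotlib 3.10.9. Both the interval and the call at 2-fold were tried on simulated counts that held counting error only, with no spread between birds or libraries.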

Additional observations from a re-analysis of the deposited data

How the results depend on the processing

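No paired analysis was possible because each group has 1 library. Among the miRNAs numbered 1000 or above, the number at least 2-fold apart was 0 under TMM factors, size factors, both other totals, minimums of 10 and 100 counts and the pseudocount. The log2 ratios of the 8 ran from -0.51 to 0.63, and no scaling shifted them by more than 0.09 either way. Of these settings, only the minimum of 10 counts could thus have changed the number. It admitted miR-2188-5p, at a log2 ratio of 0.98, which was not taken through the other scalings. The number at least 2-fold apart was 3 when a single count in each library was enough. These were miR-1784-5p, miR-7475-5p and miR-1805-3p, named after their values were seen, with at most 7 counts each over both libraries. It was 1 with the 1.5-fold rule. The median log2 ratio of 0.01 was -0.03 with TMM factors, -0.05 with size factors and -0.08 with totals over chicken-named rows. It was 0.07 with totals without the 10 most abundant rows. Each such setting shifts every log2 ratio by a common amount, and the sign of the median depended on it. With no minimum, which adds rows of few counts, the median was 0.13. With at least 10 counts, 11 were detected in CT and 11 in CC. The share of the library in these miRNAs was 0.107% in CT and 0.115% in CC of the chicken-named counts, a gap beyond counting error. It was 0.645% in CT and 0.628% in CC without the 10 most abundant rows, and 0.0501% in CT and 0.0516% in CC without miR-2954. Counting novel_112 as miR-1552-5p was chosen after seeing the data and gave 0.0955% in CT and 0.0975% in CC. By itself novel_112 had a ratio of CT to CC of 0.746 (0.568 to 0.976), below 1. The even split of the intervals that excluded 1 therefore holds for the chicken-named rows as listed, without novel_112. For the 8 named miRNAs, 39 of 40 values under other settings stayed within the counting interval. The exception was miR-2954, at -0.09 with totals over chicken-named rows. Most of the intervals were wide beside the scaling shifts, so for most members staying within them was fixed beforehand. Rows under 10 counts are too shallow for a ratio at this depth.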

Other observations

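Some hairpins numbered 1000 or above carry letters known from other small RNAs. Box C/D small nucleolar RNAs, which guide the modification of ribosomal RNA, hold a C box near the start and a D box near the end. The letters AUGAUGA or GUGAUGA within the first 15 bases together with CUGA within the last 19 bases were found, on the listed strand, in 2 of 157 chicken-named miR hairpins (1.27%). Both were numbered 1000 or above, miR-3535 and miR-1434, and none of the 133 lower-numbered hairpins matched. With the C box letters alone, anywhere in the hairpin, the match was found in 3 of the 24 hairpins numbered 1000 or above and in 3 of the 133 lower-numbered ones. miR-3535 had 34 counts in CT and 24 in CC, and miR-1434 had 7 in CT and 4 in CC. Their folds had -0.31 kcal/mol per base for miR-3535 and -0.28 kcal/mol per base for miR-1434, against a median of -0.44 kcal/mol per base over the 24 hairpins. miR-3607, miR-6516 and miR-6623, which did not match in these windows, were also at -0.31 kcal/mol per base. The lower-numbered hairpins reached -0.29 kcal/mol per base. The letters and windows were chosen after these sequences were seen, and a match is a description of letters only.

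The hairpins of miR-1677 and miR-1803 shared an 18-nt run on opposite strands, ccgcugaagucaauggaa, read on the miR-1677 strand. It was the longest run among the 276 pairs of hairpins numbered 1000 or above. Taking the longest run per pair and strand, 3 were 12 nt or longer. The others were 12 nt each, from this same pair on the same strand and from miR-1756a and miR-6623. Runs between lower-numbered hairpins were not sought. miR-1677-3p had 0 counts in CT and 1 in CC, and miR-1803 had 0 in CT and 2 in CC.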
